A study of Mus musculus with 9 samples.

Results

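The genes described here encode the integrin and laminin chains, 37 of the 43644 genes in the deposited table, chosen by a rule on gene symbols. The rule used no measured value, but it was set with earlier results of these data known. They comprise 26 integrin chains and 11 laminin chains. By their known ligands and partners, 19 integrin chains are treated as matrix-binding and 7 as leukocyte integrins, and these are reported apart. RNA came from the coronal suture of C57BL/6 mice aged 7 months, and there were 3 libraries in each of 3 groups. REG mice were Twist1+/- and had suture regeneration surgery at the age of 1 month. MUT mice were Twist1+/- and had no surgery, and WT mice were wild type and had no surgery. There was no operated wild-type group, so the effect of surgery can be compared in Twist1+/- mice only. No label ties a library to its own animal, so the p-values reflect library-to-library spread, which may be technical.

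Integrins are receptors of the cell surface, each made of an alpha and a beta chain, which grip the extracellular matrix or other cells on the outside and the actin skeleton on the inside. Laminins are cross-shaped secreted proteins, each made of an alpha, a beta and a gamma chain, that build the sheet-like basement membranes under epithelia and around vessels, nerves, muscle and fat cells. In bone and its sutures, integrins are known for holding osteoblast lineage cells to collagen and fibronectin and osteoclasts to bone, whereas leukocyte integrins are carried by cells of the marrow and blood.

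All 37 genes passed the filter on low values and were tested within a fit of 29107 genes. The values are upper-quartile scaled read counts as deposited, and a gene was called at a Benjamini-Hochberg adjusted p under 0.05 in limma over all genes tested. The libraries differed by group in depth and background. Estimated reads numbered 18276494 to 39377876 in REG, 2945636 to 10894209 in MUT and 16356391 to 20019712 in WT. Background, estimated from 1747 olfactory and vomeronasal receptor genes, made up 0.479% to 0.768% of reads in REG, 7.00% to 22.2% in MUT and 0.577% to 0.810% in WT. Twist1 itself had 3.76, 9.19 and 12.2 in REG, 0.987, 8.08 and 0.548 in MUT, and 16.2, 23.3 and 23.1 in WT. Every REG and MUT library thus lay below every WT library, and MUT replicate 2, whose name in the submitters' sheet does not follow the other MUT names, lay within the range of REG. The names of REG replicates 1 and 2 in that sheet also differ in style from that of REG replicate 3. The labels do not say what these name styles mean.

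In MUT against WT, 13 chains fell, among them the Itgb1 and Itgb5 integrin betas and the Lama4, Lamb1, Lamb2 and Lamc1 laminin chains, and 1 rose. The 14 called genes were 37.8% of the 37, close to the 35.1% of all genes tested that were called, so the total says nothing particular about them. By direction, 35.1% of the 37 were lower, against 14.6% of all genes, and 2.7% were higher, against 20.5% of all genes. These all-gene shares include many low genes and depended on the filter. With a 10 times stricter filter, 3985 of 11449 genes and 13 of the 31 chains still tested were lower in MUT than in WT. There 910 genes and 0 of these chains were higher. The median log2 changes were then close, -0.99 over all genes and -1.07 over these chains. In REG against MUT, 17 of 37 were called (45.9%, against 36.6% of all genes), of which 14 were higher (37.8% against 11.8%) and 3 lower (8.11% against 24.8%). With the stricter filter 2780 of 11449 genes and 14 of the 31 chains were higher there, and 872 genes and 0 chains lower. The median log2 changes were then 0.73 over all genes and 1.10 over these chains. The all-gene shares given below for classes and lists are those without the stricter filter. In REG against WT, 0 of 37 were called, as were 0% of all genes, while 6 of the 37 and 2755 of the 29107 genes had an unadjusted p under 0.05 (limma). Both comparisons with calls rest on the same 3 MUT libraries, so their opposite signs are not separate evidence.

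The libraries of MUT and WT did not overlap for 23 of the 37 genes, 5 higher and 18 lower in MUT, where this held for 58.5% of all genes (32.6% higher and 25.9% lower). Those of REG and MUT did not overlap for 19 genes, 16 higher and 3 lower in REG, against 42.5% of all genes (14.0% higher and 28.5% lower). The median log2 change was -0.53 in MUT against WT, with 0.18 over all genes, and 0.57 in REG against MUT, with -0.36 over all genes.

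These medians depended on how libraries were scaled. The background subtraction setting also scaled libraries to total reads. In MUT against WT the median over all genes was -0.30 with trimmed-mean scaling, -0.05 with quantile scaling, 0.28 after background subtraction and 1.11 with total-read scaling, while the median of the 37 genes was -0.86, 0.04, 0.00 and 0.62 in the same order. It lay below that of all genes in 4 of the 5 scalings and 0.09 above it with quantile scaling. In REG against MUT the median of the 37 genes was 1.22, -0.18, 0.18 and -0.25 under those settings, above that of all genes in 4 of the 5 scalings and below it with quantile scaling.

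**Figure D1:**
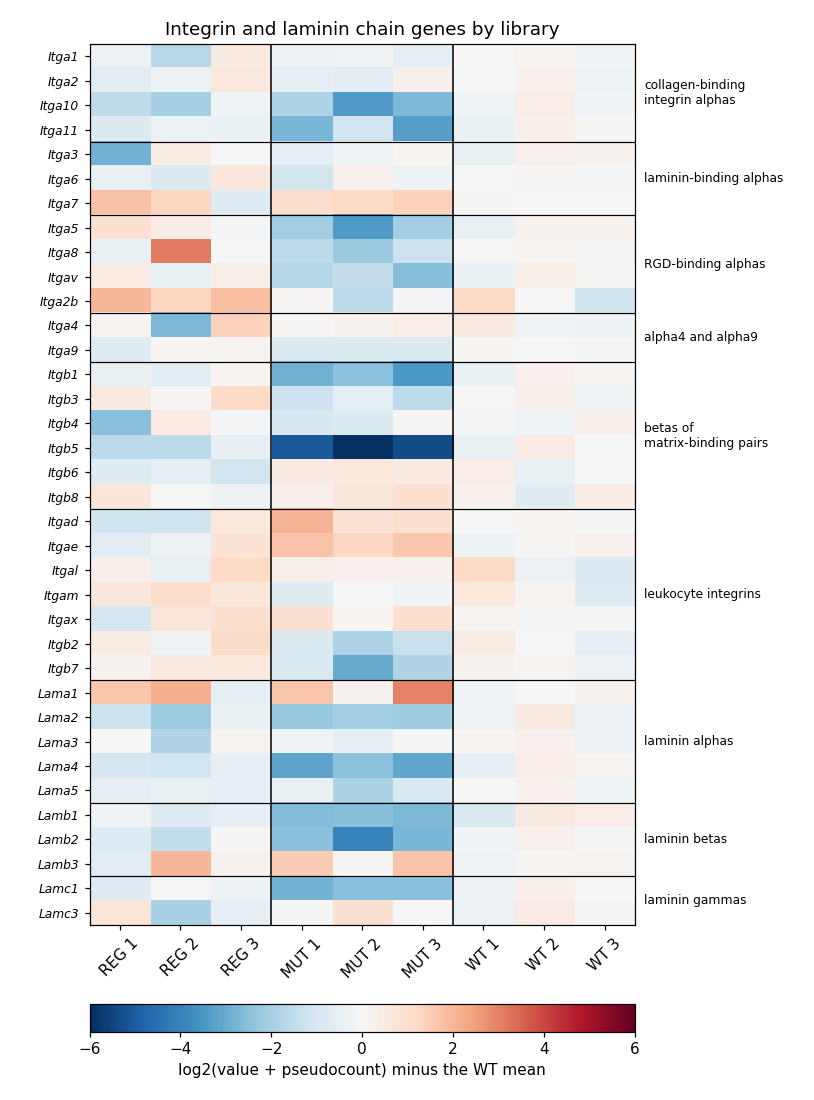
Each row is an integrin or laminin chain gene and each column a library, with REG on the left, MUT in the middle and WT on the right. Colour gives log2(value + pseudocount) minus the mean of the 3 WT libraries, blue for lower and red for higher. Itgb5 forms the darkest blue row in MUT, and Itga8 is red in REG replicate 2.

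The integrin beta chain Itgb5, which pairs with the alpha v chain to bind vitronectin and other RGD-bearing proteins, had the largest change of the 37 genes in both comparisons that involved MUT. The gene lies at chr16:33829665-33949339 on the plus strand (GRCm38). It had values of 85.7, 87.3 and 180.4 in REG, 7.39, 3.65 and 5.84 in MUT, and 186, 356 and 255 in WT. No library of MUT overlapped either other group, and the highest REG library fell just short of the lowest WT library. Against WT, MUT had a log2 change of -5.48 ± 0.44 (SE), which is 44.5-fold lower (limma, adjusted p = 0.000249). Against MUT, REG had one of 4.26 ± 0.44, which is 19.2-fold higher (limma, adjusted p = 0.000891). Measured from the all-gene median, the MUT against WT change lay between -5.65 and -4.34 over the 5 scalings. Itgb5 stood at 5.41 to 6.30 times the receptor gene density in MUT, against 1069 to 2805 times in REG and 1644 to 3872 times in WT. The MUT values rest on 452, 36 and 277 estimated reads. In bulk tissue, fewer cells of a type and less RNA per cell cannot be told apart.

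Itgb1, the common partner of most matrix-binding alpha chains, changed in the same directions. It lies at chr8:128685654-128733201 on the plus strand. Its values were 81.4, 69.7 and 123 in REG, 15.03, 20.1 and 10.1 in MUT, and 83.5, 135 and 126 in WT. All MUT libraries lay below all others, and REG and WT overlapped. The log2 change was -2.92 ± 0.40 in MUT against WT (limma, adjusted p = 0.00153) and 2.58 ± 0.40 in REG against MUT (limma, adjusted p = 0.00232). The calls of Itgb1 and Itgb5 in both comparisons held under all 22 alternatives.

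**Figure D2:**
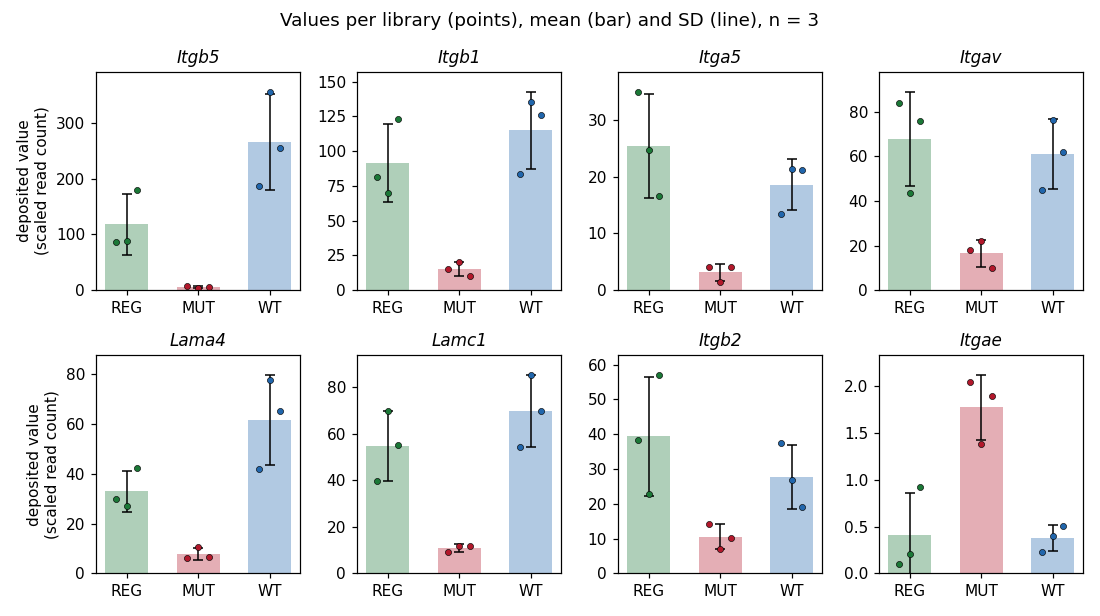
Points are the deposited values (upper-quartile scaled read counts) of single libraries, bars the means and lines the SD (n = 3), with REG, MUT and WT from left to right. For all genes shown but Itgae the MUT libraries sit below the REG and WT libraries, and for Itgae they sit above them.

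Promoters are shown for 4 of the genes that changed, because Twist1 is a basic helix-loop-helix factor of the class that binds CANNTG motifs, known as E-boxes. The RefSeq promoter table (GRCm38.p6, from 250 bases before to 50 bases after a transcript start, 300 in all) held 26 promoters of 23 of the 37 genes. CANNTG, which covers both strands at once, was found in 22 of the 26 (84.6%), against 72.3% of the 32851 promoters in the table. CATCTG on either strand, itself a form of CANNTG, was found in 7 of the 26 (26.9%), against 17.2% of all promoters. These shares were not tested, and the 4 genes shown were picked by hand. Itgav and Itga10, called lower in MUT than in WT, held 0 CANNTG. Itga1 and Itgam, neither called with the deposited scaling, each held 1 CATCTG. A match describes only the letters of the window. Capitals mark every CANNTG.
Itgb5, chr16:33829415-33829714, plus strand: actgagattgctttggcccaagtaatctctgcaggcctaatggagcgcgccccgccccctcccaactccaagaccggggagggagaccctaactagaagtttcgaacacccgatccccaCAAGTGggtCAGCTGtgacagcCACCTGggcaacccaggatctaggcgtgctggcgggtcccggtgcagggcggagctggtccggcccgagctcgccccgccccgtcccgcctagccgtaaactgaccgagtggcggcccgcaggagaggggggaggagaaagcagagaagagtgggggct
Itgb1, chr8:128685404-128685703, plus strand: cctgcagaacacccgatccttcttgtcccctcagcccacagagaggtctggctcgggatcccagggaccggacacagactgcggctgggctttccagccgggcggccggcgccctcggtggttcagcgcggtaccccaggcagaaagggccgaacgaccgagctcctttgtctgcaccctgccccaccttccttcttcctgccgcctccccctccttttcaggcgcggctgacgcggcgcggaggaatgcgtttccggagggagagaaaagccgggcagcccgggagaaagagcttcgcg
Lamb2, chr9:108479612-108479911, plus strand: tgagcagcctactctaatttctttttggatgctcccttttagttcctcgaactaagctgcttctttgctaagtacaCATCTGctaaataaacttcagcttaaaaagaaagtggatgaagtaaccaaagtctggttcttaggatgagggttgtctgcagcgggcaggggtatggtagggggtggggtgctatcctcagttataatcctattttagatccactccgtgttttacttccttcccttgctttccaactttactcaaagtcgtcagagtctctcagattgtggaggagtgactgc
Itgb7, chr15:102231886-102232185, minus strand: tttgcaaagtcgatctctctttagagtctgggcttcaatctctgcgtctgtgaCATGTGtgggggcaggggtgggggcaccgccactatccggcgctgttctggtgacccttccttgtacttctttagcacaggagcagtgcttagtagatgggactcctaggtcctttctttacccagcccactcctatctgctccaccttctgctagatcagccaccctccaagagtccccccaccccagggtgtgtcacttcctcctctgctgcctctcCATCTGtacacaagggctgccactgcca
The Itgb5 window held 3 CANNTG motifs and that of Itgb1 held 0. The windows of Lamb2 and of Itgb7 each held a CATCTG. GC content was 65.7% for Itgb5, 67.3% for Itgb1, 44.0% for Lamb2 and 56.3% for Itgb7, so these 4 promoters differed in motif count and in base composition.

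The other beta chains of the matrix-binding pairs split. Itgb3, which pairs with alpha v on osteoclasts and with Itga2b on platelets, was higher in REG than in MUT, with values of 52.8, 38.1 and 83.5 in REG, 15.2, 24.4 and 12.2 in MUT, and 35.8, 44.9 and 29.9 in WT. MUT lay below both other groups with no overlap. Its log2 change was 1.72 ± 0.41 in REG against MUT (limma, adjusted p = 0.0112), while in MUT against WT it was -1.12 ± 0.41 (limma, adjusted p = 0.0583). The REG against MUT call ended with quantile scaling (0.76, adjusted p = 0.194 in limma), total-read scaling (0.84, adjusted p = 0.0825), background subtraction (0.74, adjusted p = 0.29) and MUT replicate 2 as the only MUT library (1.17, adjusted p = 0.188). The MUT against WT change was called without MUT replicate 2 (-1.39, adjusted p = 0.0327 in limma), and also without REG replicate 2 or REG replicate 3. Summed osteoclast markers (6 of 6 detected) were 1756 to 4753 RPM in REG, 648 to 993 RPM in MUT and 779.6 to 1405 RPM in WT, and their part in the Itgb3 result was not tested.

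Itgb6, the epithelial partner of alpha v that activates latent TGF-beta, was called in the opposite direction. Its values were 0.708, 0.833 and 0.441 in REG, 2.18, 2.37 and 2.22 in MUT, and 1.97, 0.932 and 1.42 in WT. MUT was highest without overlap, at a low level in every group. The log2 change was -1.37 ± 0.34 in REG against MUT (limma, adjusted p = 0.0134), and after background subtraction it was 0.00, adjusted p = 0.999 (limma). The call also ended with trimmed-mean scaling (-0.78, adjusted p = 0.135), quantile scaling (-0.87, adjusted p = 0.118) and MUT replicate 2 as the only MUT library (-1.43, adjusted p = 0.0955 in limma). Itgb8, another partner of alpha v in TGF-beta activation, and Itgb4, the beta chain of hemidesmosomes, were not called in any comparison. Itgb8 averaged 2.496 ± 1.11 in REG, 3.61 ± 0.859 in MUT and 2.31 ± 1.002 in WT (SD, n = 3), and Itgb4 averaged 6.89 ± 5.34 in REG, 5.68 ± 2.45 in MUT and 8.32 ± 1.78 in WT.

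**Figure D3:**
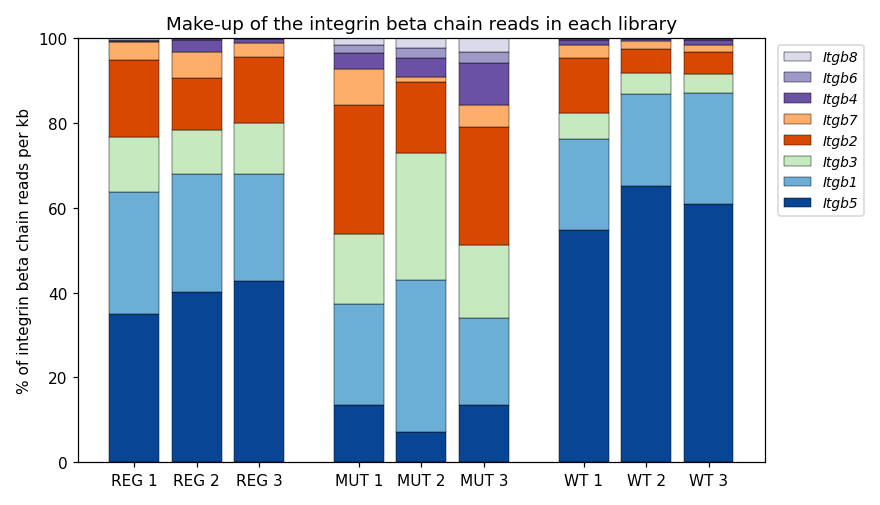
Stacked bars give each integrin beta chain's percentage of the integrin beta reads per kb of exon in every library, with REG on the left, MUT in the middle and WT on the right. The Itgb5 segment is narrow in MUT, at 7.26% to 13.5%, and widest in WT.

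Shares within a library do not depend on how libraries are scaled against each other. Itgb5 made up these shares of the integrin beta reads per kb, 34.9% to 42.6% in REG, 7.26% to 13.5% in MUT and 54.8% to 65.2% in WT, and the 3 groups did not overlap. After background subtraction these shares were 34.95, 40.1 and 42.7% in REG, 13.5, 6.62 and 13.8% in MUT, and 54.9, 65.3 and 61.0% in WT. The share of Itgb1 was 25.4% to 28.8% in REG, 20.5% to 35.7% in MUT and 21.3% to 26.2% in WT, with overlap between all groups. Itgav over Itgb5 in reads per kb, the chains of the vitronectin receptor, gave ratios of 0.323, 0.166 and 0.139 in REG, 0.798, 2.04 and 0.559 in MUT, and 0.0797, 0.0709 and 0.0802 in WT. Between the groups these ratios did not overlap. By mean RPKM, a level per exon length, Itgb5 ranked first of the 37 genes in REG (84.1 ± 26.1, SD) and in WT (151 ± 38.1). In MUT it was 5th (8.33 ± 4.36), and Itgb2 was first there (18.2 ± 9.46).

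Among the alpha chains that bind RGD-bearing ligands such as fibronectin, vitronectin and fibrinogen, all 4 were higher in REG than in MUT and 2 were lower in MUT than in WT. Over all genes, 11.8% were higher in REG than in MUT and 14.6% lower in MUT than in WT. The 4 REG against MUT changes were positive under all 5 scalings, with 4 called in the upper-quartile and trimmed-mean scalings and 2 in each of the others. Itga5, the fibronectin receptor chain at chr15:103344286-103366764 on the minus strand, had values of 34.9, 24.6 and 16.6 in REG, 4.06, 1.40 and 3.996 in MUT, and 13.3, 21.3 and 21.2 in WT. MUT lay below both other groups, and REG and WT overlapped. Its log2 change was 2.92 ± 0.47 in REG against MUT (limma, adjusted p = 0.00255), a call that held under all 22 alternatives. It was -2.52 ± 0.47 in MUT against WT (limma, adjusted p = 0.00439), and this call ended with total-read scaling (-1.37, adjusted p = 0.103 in limma) and background subtraction (-1.97, adjusted p = 0.114).

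Itgav, the alpha v chain shared by several beta partners, had values of 83.8, 43.7 and 75.8 in REG, 17.8, 21.9 and 9.84 in MUT, and 44.97, 76.4 and 61.9 in WT. Here too MUT lay apart below the others. REG against MUT gave a log2 change of 2.03 ± 0.43 (limma, adjusted p = 0.00667) and MUT against WT one of -1.90 ± 0.43 (limma, adjusted p = 0.00927). With quantile scaling these became 1.04, adjusted p = 0.122 (limma) and -0.72, adjusted p = 0.252. Background subtraction and MUT replicate 2 as the only MUT library also ended both calls, and total-read scaling that in MUT against WT (-0.67, adjusted p = 0.19).

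Itga8, a receptor chain for nephronectin and fibronectin, had values of 5.15, 62.2 and 7.02 in REG, 2.10, 1.22 and 2.67 in MUT, and 6.89, 7.55 and 6.42 in WT. The mean of REG was set by replicate 2, while replicates 1 and 3 lay near WT. REG against MUT gave a log2 change of 2.58 ± 0.78 (limma, adjusted p = 0.0268), and the call ended without MUT replicate 1 (adjusted p = 0.0683 in limma), MUT replicate 2 (0.0778) or MUT replicate 3 (0.0543). Without REG replicate 2, Itga8 was called lower in MUT than in WT (-1.68, adjusted p = 0.00516 in limma). The REG against MUT call also ended with total-read scaling (1.82, adjusted p = 0.127 in limma), a 10 times larger pseudocount (1.71, adjusted p = 0.0954), a fit of the 2 groups compared (2.58, adjusted p = 0.0737) and MUT replicate 2 as the only MUT library (3.11, adjusted p = 0.146). In MUT it stood at 0.823 to 1.30 times the receptor gene density.

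Itga2b, the platelet and megakaryocyte fibrinogen receptor chain, had values of 24.8, 15.2 and 22.2 in REG, 6.32, 1.81 and 5.58 in MUT, and 14.4, 6.05 and 2.39 in WT. REG lay above both other groups, and its log2 change against MUT was 2.22 ± 0.63 (limma, adjusted p = 0.0218). The call ended without REG replicate 1 (adjusted p = 0.0549 in limma) and without MUT replicate 2 (0.0667). It also ended with total-read scaling (1.40, adjusted p = 0.164), quantile scaling (1.60, adjusted p = 0.157) and background subtraction (1.80, adjusted p = 0.205 in limma). Summed megakaryocyte and platelet markers (8 of 8 detected) were 53.0 to 133 RPM in REG, 93.0 to 118 RPM in MUT and 29.9 to 79.9 RPM in WT, and their part in the Itga2b result was not tested.

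The collagen-binding alpha chains did not change alike, with 2 of 4 lower in MUT than in WT and 1 of 4 higher in REG than in MUT. The shares of all genes were 14.6% lower and 11.8% higher in these comparisons. Itga11, the fibrillar collagen receptor chain of mesenchymal cells, had values of 19.1, 26.2 and 25.4 in REG, 4.76, 14.9 and 3.12 in MUT, and 25.5, 41.9 and 35.8 in WT. MUT lay below both other groups, with replicate 2 the highest of the 3. Its log2 change was -2.39 ± 0.52 in MUT against WT (limma, adjusted p = 0.00823) and 1.87 ± 0.52 in REG against MUT (limma, adjusted p = 0.0199). With MUT replicate 2 as the only MUT library both calls ended, at -1.16, adjusted p = 0.134 (limma) and 0.63, adjusted p = 0.391. The REG against MUT call also ended without MUT replicate 1 (adjusted p = 0.0701 in limma) or MUT replicate 3 (0.072). Quantile scaling and background subtraction ended both calls, at -1.65, adjusted p = 0.0519 and -1.46, adjusted p = 0.0957 in MUT against WT and 1.30, adjusted p = 0.123 and 1.29, adjusted p = 0.143 in REG against MUT (limma), and total-read scaling that in REG against MUT (1.03, adjusted p = 0.0807).

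Itga10, the chain known from chondrocytes, had values of 7.05, 5.03 and 18.1 in REG, 5.46, 1.68 and 2.94 in MUT, and 17.7, 28.02 and 18.6 in WT. WT lay above MUT, and REG replicate 3 lay within WT. MUT against WT gave a log2 change of -2.65 ± 0.54 (limma, adjusted p = 0.00626) and REG against MUT one of 1.41 ± 0.54 (limma, adjusted p = 0.0641), called without REG replicate 2 (1.78, adjusted p = 0.0276) or MUT replicate 1 (1.80, adjusted p = 0.0482), and with trimmed-mean scaling (2.04, adjusted p = 0.0087). The MUT against WT call ended with total-read scaling (-1.50, adjusted p = 0.071 in limma) and background subtraction (-2.08, adjusted p = 0.0785). Of its exon bases 33.5% are shared with Gm42957 on the same strand, which was not called in any comparison. Itga1 and Itga2, the alpha chains of broadly expressed collagen receptors, were not called. Itga1 averaged 9.87 ± 7.01 in REG, 9.06 ± 0.987 in MUT and 11.7 ± 1.42 in WT (SD, n = 3), and Itga2 averaged 5.79 ± 3.10 in REG, 4.90 ± 2.02 in MUT and 5.85 ± 1.07 in WT. Itga11 over Itga1 in reads per kb gave 7.72, 28.4 and 5.33 in REG, 1.86, 5.47 and 1.41 in MUT, and 8.22, 11.5 and 12.4 in WT, with REG and MUT overlapping and MUT below WT. In MUT, Itga1 stood at 1.51 to 2.86 times and Itga11 at 2.19 to 15.7 times the receptor gene density. Background therefore enters the MUT ratios, and a change in the balance of the chains cannot be read from them.

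Of the 3 laminin-binding alpha chains 0 were called in any comparison, and 0 had an unadjusted p under 0.05 (limma). Over all genes, 35.1% were called in MUT against WT and 36.6% in REG against MUT. Itga6, the partner of Itgb1 and Itgb4 in laminin receptors, averaged 11.5 ± 6.73 in REG, 9.73 ± 4.48 in MUT and 11.998 ± 0.683 in WT (SD, n = 3). Itga3, its relative in epithelia, averaged 3.44 ± 2.85 in REG, 3.59 ± 0.933 in MUT and 4.28 ± 1.18 in WT. Itga7, the laminin receptor chain of muscle, had 6.96, 4.83 and 0.873 in REG, 3.97, 4.54 and 5.17 in MUT, and 1.88, 1.71 and 1.74 in WT. REG replicates 1 and 2 and all MUT libraries lay above WT, and REG replicate 3 below it. In MUT, Itga7 stood at 1.48 to 2.97 times the receptor gene density, so background limits its level there. It stood at 5.79 to 39.6 times that density in REG and 6.66 to 8.05 times in WT. Without REG replicate 3, Itga7 was called in REG against WT (1.53, adjusted p = 0.0394 in limma) and in MUT against WT (1.19, adjusted p = 0.0167). Summed RPM of the skeletal muscle markers (6 of 6 detected) was 330.4, 596 and 68.3 in REG, 47.1, 52.6 and 59.8 in MUT, and 9.41, 112 and 9.87 in WT, and their part in the Itga7 values was not tested.

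Itga4 and Itga9, chains that bind VCAM1, fibronectin splice forms and tenascin, were not called. Itga4 had 18.4, 2.25 and 43.5 in REG, 17.3, 19.3 and 21.6 in MUT, and 24.3, 14.1 and 13.1 in WT, so the REG libraries spanned the range of the others. Itga9 averaged 15.7 ± 5.08 in REG, 9.23 ± 0.233 in MUT and 16.9 ± 1.22 in WT (SD, n = 3), with every MUT library below the others. Its log2 change was -0.85 ± 0.35 in MUT against WT (limma, adjusted p = 0.0818) and 0.69 ± 0.35 in REG against MUT (limma, adjusted p = 0.146). Trimmed-mean scaling called both (-1.19, adjusted p = 0.0275 and 1.36, adjusted p = 0.015 in limma). MUT against WT was also called with no filter (adjusted p = 0.0499), a 10 times larger pseudocount (0.0346) and a fit of the 2 groups compared (0.0325 in limma). That change ran from -1.19 to 0.37 over the 5 scalings. REG against MUT was also called without REG replicate 1 (0.99, adjusted p = 0.0477 in limma).

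**Figure D4:**
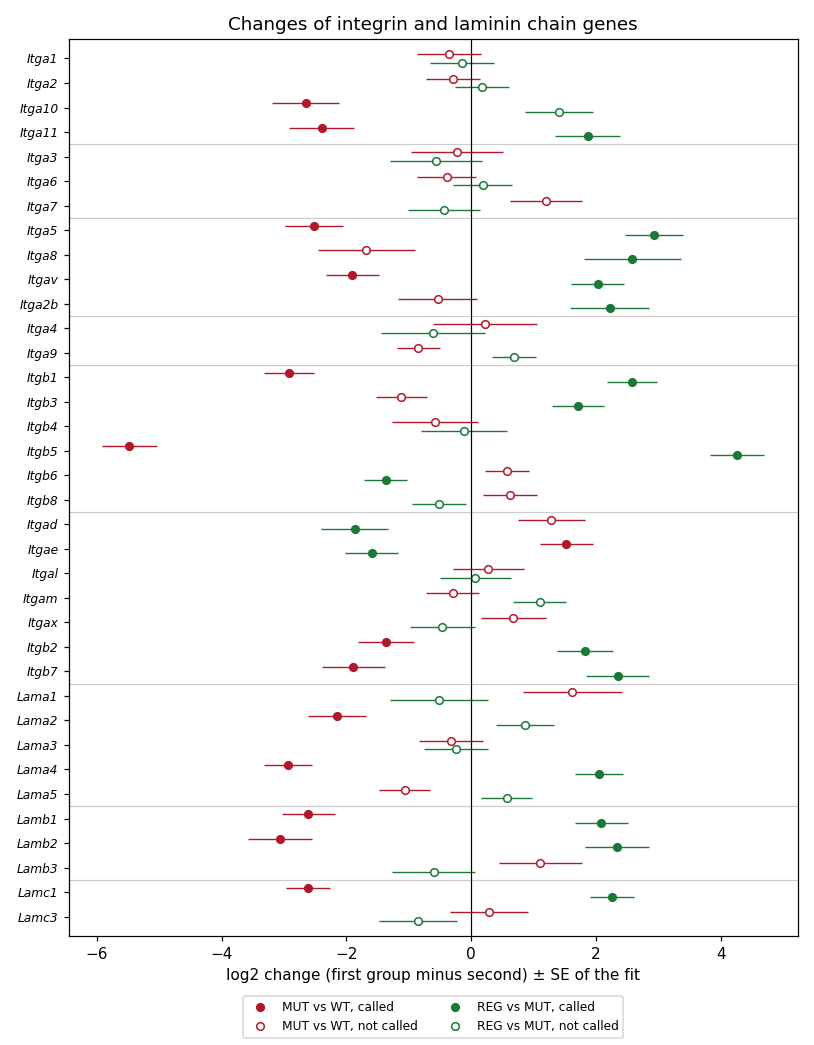
Points are log2 changes of integrin and laminin chain genes with the SE of the fit, red for MUT against WT and green for REG against MUT, filled where the gene was called and open where it was not. Itgb5 lies at -5.48 in MUT against WT and at 4.26 in REG against MUT.

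The 7 leukocyte integrins went different ways. Against WT, MUT had 2 lower and 1 higher, where 14.6% of all genes were lower and 20.5% higher. In REG against MUT 2 were higher and 2 lower, where 11.8% of all genes were higher and 24.8% lower. Counts from 7 genes are too few to set the class apart from these shares. Itgb2, the common beta chain of the leukocyte-specific integrins, had values of 38.3, 22.9 and 57.0 in REG, 14.3, 7.12 and 10.3 in MUT, and 37.5, 26.7 and 19.0 in WT. MUT lay below both other groups. REG against MUT gave a log2 change of 1.82 ± 0.45 (limma, adjusted p = 0.0125) and MUT against WT one of -1.36 ± 0.45 (limma, adjusted p = 0.0399). The MUT against WT call ended without MUT replicate 2, MUT replicate 3 or any WT library, with adjusted p of 0.103, 0.0903, 0.133, 0.111 and 0.0591 (limma). It also ended with total-read scaling (-0.14, adjusted p = 0.846), quantile scaling (-0.28, adjusted p = 0.734) and background subtraction (0.00, adjusted p = 0.997 in limma), as well as with a 10 times smaller pseudocount (-1.39, adjusted p = 0.0812) and MUT replicate 2 as the only MUT library (-1.86, adjusted p = 0.0965). The REG against MUT call ended with total-read scaling (0.95, adjusted p = 0.172), quantile scaling (0.85, adjusted p = 0.302), background subtraction (0.82, adjusted p = 0.396) and MUT replicate 2 as the only MUT library (2.31, adjusted p = 0.0542 in limma).

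Itgb7, the beta chain of gut-homing and intraepithelial lymphocytes, had values of 8.32, 10.5 and 10.9 in REG, 3.71, 0.554 and 1.78 in MUT, and 8.32, 7.66 and 5.54 in WT. MUT lay below both other groups. It was lower in MUT than in WT (log2 change -1.89 ± 0.50, limma, adjusted p = 0.018) and higher in REG than in MUT (2.35 ± 0.50, limma, adjusted p = 0.00725). The MUT against WT call ended without WT replicate 1 (adjusted p = 0.0606 in limma) or WT replicate 2 (0.0672). It also ended with total-read scaling (-0.84, adjusted p = 0.347), quantile scaling (-1.89, adjusted p = 0.0549) and background subtraction (-1.44, adjusted p = 0.306 in limma). In REG against MUT total-read scaling (1.63, adjusted p = 0.0791) and background subtraction (2.25, adjusted p = 0.122) ended the call (limma). In MUT its level was 0.888 to 4.05 times the receptor gene density.

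Itgae, the alpha chain that pairs with Itgb7 to bind E-cadherin, was the gene called higher in MUT. Its values were 0.105, 0.202 and 0.922 in REG, 2.04, 1.38 and 1.89 in MUT, and 0.226, 0.396 and 0.510 in WT. Itgae and Itgb7 were called in opposite directions. Background enters the MUT values of both, with Itgb7 at 0.888 to 4.05 times the receptor gene density. A change in the balance of the pair therefore cannot be read from them. For Itgae the log2 change was 1.53 ± 0.43 in MUT against WT (limma, adjusted p = 0.0212) and -1.59 ± 0.43 in REG against MUT (limma, adjusted p = 0.0168). In MUT it stood at 1.34 to 1.52 times the receptor gene density, and after background subtraction the calls ended, with changes of 1.53, adjusted p = 0.0811 in MUT against WT and -1.42, adjusted p = 0.109 in REG against MUT (limma). Quantile scaling gave 1.03, adjusted p = 0.109 and -0.86, adjusted p = 0.193. Without MUT replicate 1 or MUT replicate 3 both calls ended, with adjusted p of 0.066 and 0.0611 in MUT against WT and 0.0555 and 0.0508 in REG against MUT. Without WT replicate 1, 2 or 3 the MUT against WT adjusted p was 0.0742, 0.0686 and 0.0535.

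Itgad, an alpha chain of macrophages and other leukocytes, had 0.102, 0.0922 and 1.30 in REG, 3.997, 1.55 and 1.71 in MUT, and 0.678, 0.772 and 0.644 in WT. MUT lay above both other groups. It was lower in REG than in MUT (log2 change -1.87 ± 0.54, limma, adjusted p = 0.0233), and the call ended without REG replicate 1 (adjusted p = 0.0678 in limma), REG replicate 2 (0.0517) or MUT replicate 1 (0.089). It also ended with trimmed-mean scaling (-1.37, adjusted p = 0.0532), quantile scaling (-1.40, adjusted p = 0.144) and background subtraction (-2.07, adjusted p = 0.0847 in limma). The MUT against WT change, not called with all libraries (limma, adjusted p = 0.0894), was called without REG replicate 3 (1.29, adjusted p = 0.0269). Of its exon bases 19.7% are shared with other genes on both strands, and whether counting used the strand is not given in the sources used here.

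Itgam, the complement receptor chain of neutrophils and macrophages, had 33.9, 44.6 and 34.2 in REG, 12.7, 21.3 and 18.7 in MUT, and 32.8, 23.9 and 12.1 in WT. REG lay above both other groups, and its log2 change against MUT was 1.10 ± 0.42 (limma, adjusted p = 0.0652). Since 68.7% of its exon bases are shared with Gm49368 on the same strand, its level is uncertain. Itgal, known from lymphocytes and other leukocytes, averaged 8.82 ± 5.24 in REG, 7.47 ± 0.111 in MUT and 7.42 ± 5.97 in WT (SD, n = 3) and was not called. Itgax, known from dendritic cells and macrophages, averaged 1.90 ± 1.27 in REG, 2.40 ± 0.840 in MUT and 1.31 ± 0.174 in WT and was not called.

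Leukocyte chains took these shares of all integrin reads per kb, 19.95% to 21.9% in REG, 26.9% to 36.3% in MUT and 7.75% to 18.6% in WT, and the groups did not overlap. Itgb1 over Itgb2 in reads per kb gave 1.59, 2.28 and 1.62 in REG, 0.785, 2.13 and 0.738 in MUT, and 1.67, 3.79 and 4.97 in WT. MUT replicates 1 and 3 were thus the libraries with more Itgb2 than Itgb1, and MUT replicate 2 lay among the REG libraries. Summed neutrophil markers (7 of 7 detected) were 3000.4 to 10849 RPM in REG, 2218 to 4247 RPM in MUT and 418 to 2215 RPM in WT. The 7 macrophage and monocyte markers, all detected, summed to 345 to 471 RPM in REG, 95.3 to 257 RPM in MUT and 186 to 223 RPM in WT. The 6 T cell markers summed to 13.0 to 29.0 RPM in REG, 73.4 to 112 RPM in MUT and 13.2 to 21.1 RPM in WT, and the 6 B cell markers to 53.4 to 127 RPM in REG, 305 to 691 RPM in MUT and 56.6 to 124 RPM in WT, again all detected in each group. The sums can be set by few genes. In MUT against WT, 1 of the 5 T cell markers tested and 1 of the 6 B cell markers were called higher and 0 lower. There 0 neutrophil markers were called, and 4 macrophage and monocyte markers were lower and 0 higher. Of all genes 20.5% were higher and 14.6% lower. The part of these cells in the leukocyte integrin values was not tested.

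**Figure D5:**
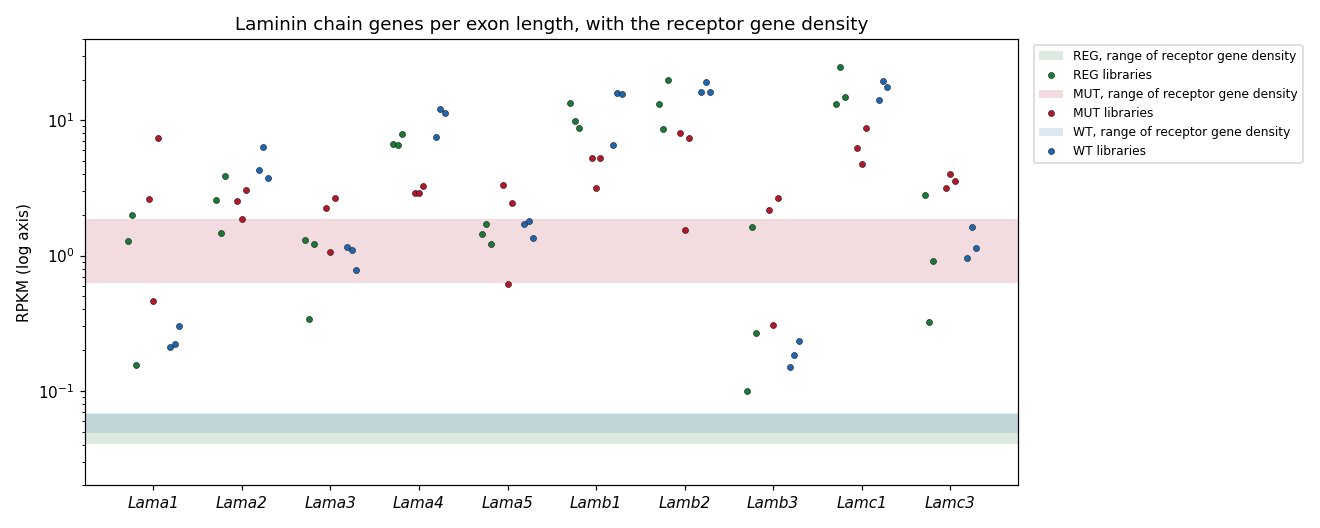
Points are the levels of laminin chain genes in RPKM on a log axis for each library, with REG, MUT and WT from left to right at each gene. Shaded bands are the ranges of the receptor gene density, 0.0406 to 0.0678 in REG, 0.627 to 1.85 in MUT and 0.0490 to 0.0692 in WT.

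Of the 11 laminin chains, 5 were lower in MUT than in WT and 4 were higher in REG than in MUT, where 14.6% of all genes were lower and 11.8% higher, and 0 were called in the other directions (limma). Their median log2 change was -1.07 in MUT against WT, with 0.18 over all genes, and 0.57 in REG against MUT, with -0.36 over all genes. With total-read scaling the medians over all genes were 1.11 and -1.04 and those of the laminins 0.10 and -0.25, still below all genes in MUT against WT and above them in REG against MUT. Of the 5 scalings, quantile scaling gave the smallest distances from all genes, -0.45 and 0.05. Lama4, the alpha chain of vessel walls and fat, at chr10:38965515-39110189 on the plus strand, had values of 29.7, 26.9 and 42.4 in REG, 6.26, 10.5 and 6.48 in MUT, and 42.1, 77.7 and 65.3 in WT. MUT lay below the rest, and REG overlapped WT by a narrow margin. Its log2 change was -2.93 ± 0.38 in MUT against WT (limma, adjusted p = 0.00135), which held under all 22 alternatives. It was 2.05 ± 0.38 in REG against MUT (limma, adjusted p = 0.00443), which ended with MUT replicate 2 as the only MUT library (1.60, adjusted p = 0.0805).

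Lamc1, the gamma chain of most laminins, had values of 39.8, 69.8 and 55.1 in REG, 9.15, 11.7 and 11.9 in MUT, and 54.2, 85.3 and 69.7 in WT. REG and WT overlapped, with MUT apart below. The changes were -2.62 ± 0.35 on the log2 scale in MUT against WT (limma, adjusted p = 0.0015) and 2.26 ± 0.35 in REG against MUT (limma, adjusted p = 0.00244). Lamb1, a beta chain of early and vascular laminins, had 48.8, 33.2 and 38.9 in REG, 9.28, 9.36 and 8.64 in MUT, and 30.2, 83.2 and 74.9 in WT. For Lamb1 the log2 change was -2.61 ± 0.42 in MUT against WT (limma, adjusted p = 0.00265) and 2.09 ± 0.42 in REG against MUT (limma, adjusted p = 0.00587). In Lamb1 too, MUT lay apart below overlapping REG and WT libraries.

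Lamb2, the beta chain of nerve-muscle junctions, kidney filters and vessels, had 29.5, 17.9 and 53.7 in REG, 8.76, 2.86 and 7.404 in MUT, and 45.8, 61.2 and 47.0 in WT. MUT was again apart, and REG replicate 3 lay within WT. For Lamb2 the log2 change was -3.07 ± 0.51 in MUT against WT (limma, adjusted p = 0.00286) and 2.34 ± 0.51 in REG against MUT (limma, adjusted p = 0.00767). After background subtraction the calls of Lamb1, Lamb2 and Lamc1 ended. In MUT against WT the adjusted p was then 0.0537, 0.0729 and 0.0603 for these genes in turn, and in REG against MUT 0.0821, 0.141 and 0.0644 (limma), with log2 changes of the same sign. The REG against MUT calls of Lamb1 and Lamb2 also ended with quantile scaling (1.20, adjusted p = 0.0878 for Lamb1 and 1.54, adjusted p = 0.11 for Lamb2) and total-read scaling (1.22, adjusted p = 0.0525 and 1.49, adjusted p = 0.0731 in limma).

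Lama2, the alpha chain of muscle and Schwann cell basement membranes, was lower in MUT than in WT but not called in REG against MUT. It had 15.4, 8.09 and 27.997 in REG, 7.36, 8.98 and 8.22 in MUT, and 32.6, 55.2 and 29.4 in WT. WT lay above both other groups, and REG replicate 2 lay within MUT. The changes were -2.15 ± 0.47 on the log2 scale in MUT against WT (limma, adjusted p = 0.00812) and 0.87 ± 0.47 in REG against MUT (limma, adjusted p = 0.171), which was called without REG replicate 2 (1.31, adjusted p = 0.0325) and with trimmed-mean scaling (1.53, adjusted p = 0.0177). The MUT against WT call ended with total-read scaling (-0.94, adjusted p = 0.117), quantile scaling (-1.14, adjusted p = 0.0911 in limma) and MUT replicate 2 as the only MUT library (-2.02, adjusted p = 0.111). Lama5, a broad alpha chain of mature vessels and epithelia, had 6.02, 6.61 and 6.22 in REG, 6.71, 2.15 and 4.65 in MUT, and 9.06, 10.8 and 7.44 in WT, with WT above both other groups. It was not called in MUT against WT (-1.07 ± 0.41 on the log2 scale, limma, adjusted p = 0.0679). It was called there without MUT replicate 1 (-1.40, adjusted p = 0.0418 in limma), with trimmed-mean scaling (-1.39, adjusted p = 0.0261), with a 10 times larger pseudocount (-0.67, adjusted p = 0.0435) and with MUT replicate 2 as the only MUT library (-1.89, adjusted p = 0.0291). In MUT it stood at 0.976 to 1.78 times the receptor gene density.

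Lama1, the alpha chain of the embryonic laminin, had 4.55, 6.60 and 0.698 in REG, 4.53, 1.40 and 11.9 in MUT, and 0.966, 1.16 and 1.42 in WT. REG replicates 1 and 2 and MUT replicates 1 and 3 lay above WT, and it was called in MUT against WT only when MUT replicate 2 was left out (2.33, adjusted p = 0.0481 in limma) or with total-read scaling. Lama3 and Lamb3, an alpha and a beta chain of skin and other epithelia, were not called. Lama3 averaged 4.07 ± 2.48 in REG, 4.16 ± 0.645 in MUT and 5.34 ± 1.17 in WT (SD, n = 3), and Lamb3 averaged 1.57 ± 1.82 in REG, 2.06 ± 1.19 in MUT and 0.643 ± 0.143 in WT. Summed keratinocyte markers (7 of 7 detected) were 15.6 to 25.9 RPM in REG, 296 to 851 RPM in MUT and 15.8 to 25.6 RPM in WT, and their part in the Lama3 and Lamb3 values was not tested. Of these 7 markers, 2 were called higher and 1 lower in MUT than in WT, where 20.5% of all genes were higher and 14.6% lower. Lamc3, a gamma chain of nerve and other tissues, averaged 3.15 ± 2.85 in REG, 4.77 ± 2.18 in MUT and 3.77 ± 1.31 in WT.

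Of the laminin alpha reads per kb, Lama4 took 50.5% to 55.0% in REG, 17.2% to 42.3% in MUT and 50.5% to 64.6% in WT, and every MUT library lay below the others. After background subtraction the Lama4 shares were 51.2, 55.4 and 55.6% in REG, 24.4, 58.0 and 15.01% in MUT, and 51.2, 56.6 and 65.5% in WT, so MUT replicates 1 and 3 were still below the others while MUT replicate 2 lay within WT. Lamb1 over Lamb2 in reads per kb gave 1.02, 1.14 and 0.444 in REG, 0.650, 2.06 and 0.716 in MUT, and 0.404, 0.834 and 0.978 in WT, and these ratios overlapped between all groups.

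Background limits the MUT values of the low genes. In MUT replicates 1, 2 and 3, 19, 15 and 12 of the 37 genes stood at less than 2 times the receptor gene density, against 3, 3 and 0 in REG replicates 1, 2 and 3 and 1, 0 and 0 in WT replicates 1, 2 and 3. Itga8, Itgae, Itgb6, Itgb8, Lama3, Lama5 and Lamb3 were among those below that line in all 3 MUT libraries.

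In REG against WT, 3 of the 37 genes (Itga2b, Itgam and Itgb7) were higher and 4 (Itgb5, Itgb6, Lama2 and Lama5) lower without overlap, where this held for 4.03% and 12.1% of all genes, and for 16.1% in either direction. The log2 change was -1.21 ± 0.44 for Itgb5 (limma, adjusted p = 0.508), -1.28 ± 0.47 for Lama2 (limma, adjusted p = 0.509) and 1.69 ± 0.63 for Itga2b (limma, adjusted p = 0.511). The median over the 37 genes was -0.21, with -0.18 over all genes. That no gene was called does not show that REG and WT levels are alike, since the log2 changes of the 37 genes carried SE of 0.34 to 0.83.

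The intracellular adapters of integrins were counted as a list of 25 genes. In MUT against WT 14 were lower and 1 higher, where 14.6% of all genes were lower and 20.5% higher. In REG against MUT 13 were higher and 2 lower, where 11.8% of all genes were higher and 24.8% lower. Parva, which links the integrin-linked kinase to actin, averaged 5.07 ± 0.404 in MUT and 28.8 ± 5.13 in WT (log2 change -2.41 ± 0.32, limma, adjusted p = 0.0014). Actn1, an actin crosslinker of focal adhesions, averaged 11.6 ± 1.17 in MUT and 79.5 ± 15.1 in WT (log2 change -2.72 ± 0.38, limma, adjusted p = 0.00159). Vcl, the talin-binding protein vinculin, averaged 54.9 ± 13.2 in REG and 10.7 ± 2.53 in MUT (log2 change 2.31 ± 0.34, limma, adjusted p = 0.00209). Tns2, a tensin that binds beta chain tails, averaged 26.8 ± 7.29 in REG and 4.75 ± 2.02 in MUT (log2 change 2.45 ± 0.39, limma, adjusted p = 0.00255). Itgb1bp2, a muscle partner of the Itgb1 tail, went the other way, averaging 0.153 ± 0.0789 in REG, 1.11 ± 0.634 in MUT and 0.292 ± 0.0734 in WT, with a log2 change of 1.09 ± 0.37 in MUT against WT (limma, adjusted p = 0.0461) and -1.43 ± 0.37 in REG against MUT (limma, adjusted p = 0.0154). Fermt1, the kindlin of epithelia, averaged 0.744 ± 0.711 in REG and 2.41 ± 0.265 in MUT (log2 change -1.50 ± 0.43, limma, adjusted p = 0.0235).

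Of 15 integrin ligands other than collagens and laminins, 8 were lower and 0 higher in MUT than in WT, and 7 were higher and 0 lower in REG than in MUT (limma), beside 14.6% of all genes lower in MUT and 11.8% higher in REG. Postn, the matricellular protein of periosteum and sutures that binds alpha v integrins, averaged 498 ± 153 in REG, 7.44 ± 1.26 in MUT and 479 ± 209.8 in WT. Its change on the log2 scale was -5.85 ± 0.43 in MUT against WT (limma, adjusted p = 0.000132) and 5.96 ± 0.43 in REG against MUT (limma, adjusted p = 0.000174). Thbs1, the adhesive glycoprotein thrombospondin, averaged 14.3 ± 3.55 in MUT and 177 ± 71.6 in WT (log2 change -3.55 ± 0.44, limma, adjusted p = 0.00122). Fn1, the ligand of the Itga5 and Itgb1 pair, averaged 429 ± 40.2 in REG and 49.1 ± 12.3 in MUT (log2 change 3.14 ± 0.39, limma, adjusted p = 0.00129).

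Of 14 basement membrane and laminin partner genes, 11 were lower and 0 higher in MUT than in WT, and 9 were higher and 1 lower in REG than in MUT (limma), beside the same 14.6% and 11.8% of all genes. Col4a1 and Col4a2 encode the collagen IV chains that form a network with laminin. Col4a1 averaged 114 ± 9.97 in REG, 10.96 ± 1.43 in MUT and 178 ± 42.8 in WT, with log2 changes of -3.96 ± 0.33 in MUT against WT (limma, adjusted p = 0.000296) and 3.33 ± 0.33 in REG against MUT (limma, adjusted p = 0.00074). Col4a2 averaged 77.0 ± 11.3 in REG, 7.71 ± 1.54 in MUT and 129 ± 41.1 in WT. Col17a1, the hemidesmosome collagen, was lower in REG than in MUT, averaging 1.20 ± 0.410 in REG and 3.20 ± 0.865 in MUT (limma, adjusted p = 0.0316). In REG against WT 0 genes of the 3 lists were called (limma), as for all genes.

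Markers of osteoblasts and suture mesenchyme, a list that includes Postn and Twist1, were detected in every group, 8 of 8. They summed in RPM to 23591, 25232 and 49494 in REG, 8889, 36640.1 and 5390.0 in MUT, and 36648, 57247 and 40621 in WT. MUT replicate 2 was close to the lowest WT library and above REG replicates 1 and 2, though such a sum can be set by few genes. Of the 8, 7 were called lower in MUT than in WT, where 14.6% of all genes were lower. The 5 pericyte and smooth muscle markers, all detected, summed to 190.2 to 301 RPM in REG, 98.6 to 109.8 RPM in MUT and 163 to 222 RPM in WT, and the 6 endothelial markers to 136 to 191 RPM in REG, 113 to 314 RPM in MUT and 138 to 159.5 RPM in WT. The part of these cell types in the integrin and laminin values was not tested.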

How the data were processed

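RNA-seq of 9 libraries was analysed, 3 in each group. The submitters' processing notes name STAR 2.6.1d, Partek and the mm10 build. The deposited signal is a read count per gene scaled to a common upper quartile, with no raw counts used here. The authors' deposited table also holds log2 ratios and FDR values (q-values adjusted by the step-up method) of their own comparisons, which support no result here. The matrix lists samples without gene names, so its 43644 columns were matched to the gene table by 4 summary statistics within 1e-06. The members and lists were chosen with earlier results of these data known.

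limma 3.58.1 (R 4.3.3) was fitted on log2(value + 0.367), for genes at or above 0.367 in at least 3 libraries, over all 9 libraries, with 2-sided tests and Benjamini-Hochberg adjustment; log2 changes understate those of low genes. Estimated reads are the value over the lowest value minus 1. This takes the lowest value of a library as 1 counting step. Of the values below 20.5 times the lowest, 41.7% to 77.4% by library lay within 0.1 of a whole multiple of it. The estimated reads are thus approximate. RPM and RPKM use the estimated reads and GENCODE exon lengths on GRCm38. A marker counts as detected in a group with at least 1 estimated read in any of its libraries. Summed marker RPM includes background reads. The named genes are all members, plus, per pathway list and comparison, the 2 called genes of smallest p in each direction. Alternatives changed scaling, filter, pseudocount, samples, the replicate block and the trend option. Total-read scaling and background subtraction both used RPM, with a pseudocount of 1 and a filter at 1 RPM. Calls that ended after background subtraction therefore cannot be credited to the subtraction alone. The procedure was tested on simulated data. Intervals between libraries cover only the spread seen here. A withheld item is counted in the totals but not reported here.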

Additional observations from a re-analysis of the deposited data

How the results depend on the processing

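Direction was kept by every called change of the 37 genes under each of the 22 alternatives that tested it, 1 of them (REG replicate 3 as the only REG library) chosen after seeing the data. The stricter filter tested 31 of the 37, and the called genes Itgb6, Itgad and Itgae were among those left out, so these were tested under 21. After background subtraction Itgb6 in REG against MUT and Itgb2 in MUT against WT stood at 0.00. That setting also scaled to total reads. Total-read scaling without subtraction gave -0.14 for Itgb2 there and left the call of Itgb6 in place. In MUT against WT, 10225 genes and 14 of the 37 were called. There, quantile scaling called 5016 genes and 8 of the 37, background subtraction 4278 and 4, a 10 times stricter filter 4895 genes, and MUT replicate 2 as the only MUT library 4065 genes. Leaving out 1 library gave 4511 genes (without WT replicate 2) to 12756 (without REG replicate 2), and 11 to 17 of the 37. In REG against MUT, 10653 genes and 17 of the 37 were called. There, quantile scaling called 4181 genes and 7 of the 37, total-read scaling 11 of the 37, background subtraction 3973 and 5, the stricter filter 3652 genes, a fit of the 2 groups compared 5689 genes, and MUT replicate 2 as the only MUT library 4264 and 6. Leaving out 1 library there gave 14 to 18 of the 37. In REG against WT, leaving out 1 library gave 0 to 1596 genes and 0 to 1 of the 37, the highest without REG replicate 3. The stricter filter tests fewer genes and the lone-library fits use fewer samples; otherwise the cause was not tested. The calls split into 5964 higher and 4261 lower in MUT against WT, against 2970 and 5606 with trimmed-mean scaling, 11734 and 876 with total-read scaling, 3425 and 853 after background subtraction and 910 and 3985 with the stricter filter. In REG against MUT they split into 3432 and 7221, against 6049 and 3214 with trimmed-mean scaling, 982 and 11455 with total-read scaling and 2780 and 872 with the stricter filter. Same-numbered libraries correlated at -0.196 to 0.101 in their deviations from group means. No pairing by number was thus seen, though 3 libraries per group are too few to exclude it. The replicate block called 8766 genes and 14 of the 37 in MUT against WT, 9373 and 17 in REG against MUT, and 0 in REG against WT. MUT depth and background limit the genes near the receptor density.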
